A study of Mus musculus with 6 samples.

Results

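The genes described here are the ubiquitin-conjugating enzymes, whose symbols begin with Ube2, and the ubiquitin-specific proteases, whose symbols begin with Usp. They were chosen by symbol alone from the array's annotation, among probe sets that name a single gene. Each gene was represented by the probe set with the highest mean log2 signal over the 4 arrays of the shRNA groups. The rule found 84 of the 18193 genes on the array, 33 of them Ube2 and 51 Usp, covered by 209 probe sets. A choice by symbol also takes Ube2d-ps, which is named as a pseudogene and typed in RefSeq as lncRNA, a long non-coding RNA. It also takes Ube2cbp, whose name stands for a binding partner of Ube2c and not for a conjugating enzyme. Usp46os2, a transcript from the strand opposite Usp46, is taken too, as is Usp6nl, named for its likeness to a protease but a GTPase-activating protein. These are counted with the conjugating enzymes and the proteases below. Probe sets that name several genes, of which 8 include a matching symbol, were left out.

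The arrays measured RNA from sorted mouse elongating spermatids, the haploid male germ cells that condense their nuclei and grow a tail. All animals were ICR males, labelled wildtype and adult, whose testes were transduced at 5 weeks of age with a lentiviral vector that also carries GFP, and GFP+ cells were sorted 1 week later. The 3 groups received an empty pSilencer vector (control) or a short hairpin RNA labelled shMiwi or shCaf1, with 2 arrays each. Piwil1 is the mouse gene for Miwi, a PIWI protein of male germ cells, and Cnot7, a deadenylase of the CCR4-NOT complex, is assumed to be the gene meant by Caf1. The labels call the arrays biological replicates, but the sources used here do not say how many animals went into each, so the p-values measure only the spread between these arrays.

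Ubiquitin is passed from an activating enzyme (E1) to a conjugating enzyme (E2, the Ube2 family) and, with the help of a ligase (E3), onto a target protein. Ubiquitin-specific proteases cut it off again, and so rescue proteins from the proteasome, edit ubiquitin chains or reverse the marking of histones. In spermatids this system is known for its part in histone removal, in the shedding of cytoplasm and in the turnover of proteins that the mature sperm does not keep. The RAD6-type enzyme Ube2b, the membrane-bound enzyme Ube2j1 and the protease Usp2 are each known from mouse mutants with defects in male fertility.

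Values are the deposited MAS5 signals, which have arbitrary units and compare arrays for 1 probe set but not probe sets with each other. Differences are of log2(signal + 16) between group means of 2 arrays, and a gene is called when its adjusted p is under 0.05. The targeted genes were read first. Piwil1 had signals of 21881 and 22442 in shCaf1 against 9780 and 10392 in shMiwi, lower in shMiwi by a log2 difference of -1.14 (SE 0.10, limma adjusted p = 0.00132). The 3 Cnot7 probe sets differed between the shRNA groups by 0.24, 0.38 and 0.73, each higher in shMiwi, and the last of them passed (limma adjusted p = 0.0339). On control replicate 1 the 3 Cnot7 probe sets ranked 1, 3 and 7 by signal among 45101 and the Piwil1 probe set ranked 5, with signals between 1377500 and 2003570. On control replicate 2 the Cnot7 probe sets ranked 37, 778 and 863 and Piwil1 ranked 13. The control arrays stood apart in other ways as well. Their 100 brightest probe sets held 56.4% and 30.4% of the signal against 5.86% to 7.29% on the shRNA arrays, and their log2 signals correlated with each other at r = 0.451, against 0.983 and 0.982 within the shRNA groups. The protamine gene Prm1, which defines elongating spermatids, read 66.1 on control replicate 1 and 188624 on control replicate 2, against 22463 to 33525 on the 4 shRNA arrays. The main comparison is therefore the one between the shRNA groups, which uses no control array, and every value against control is given with these limits.

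**Figure D1:**
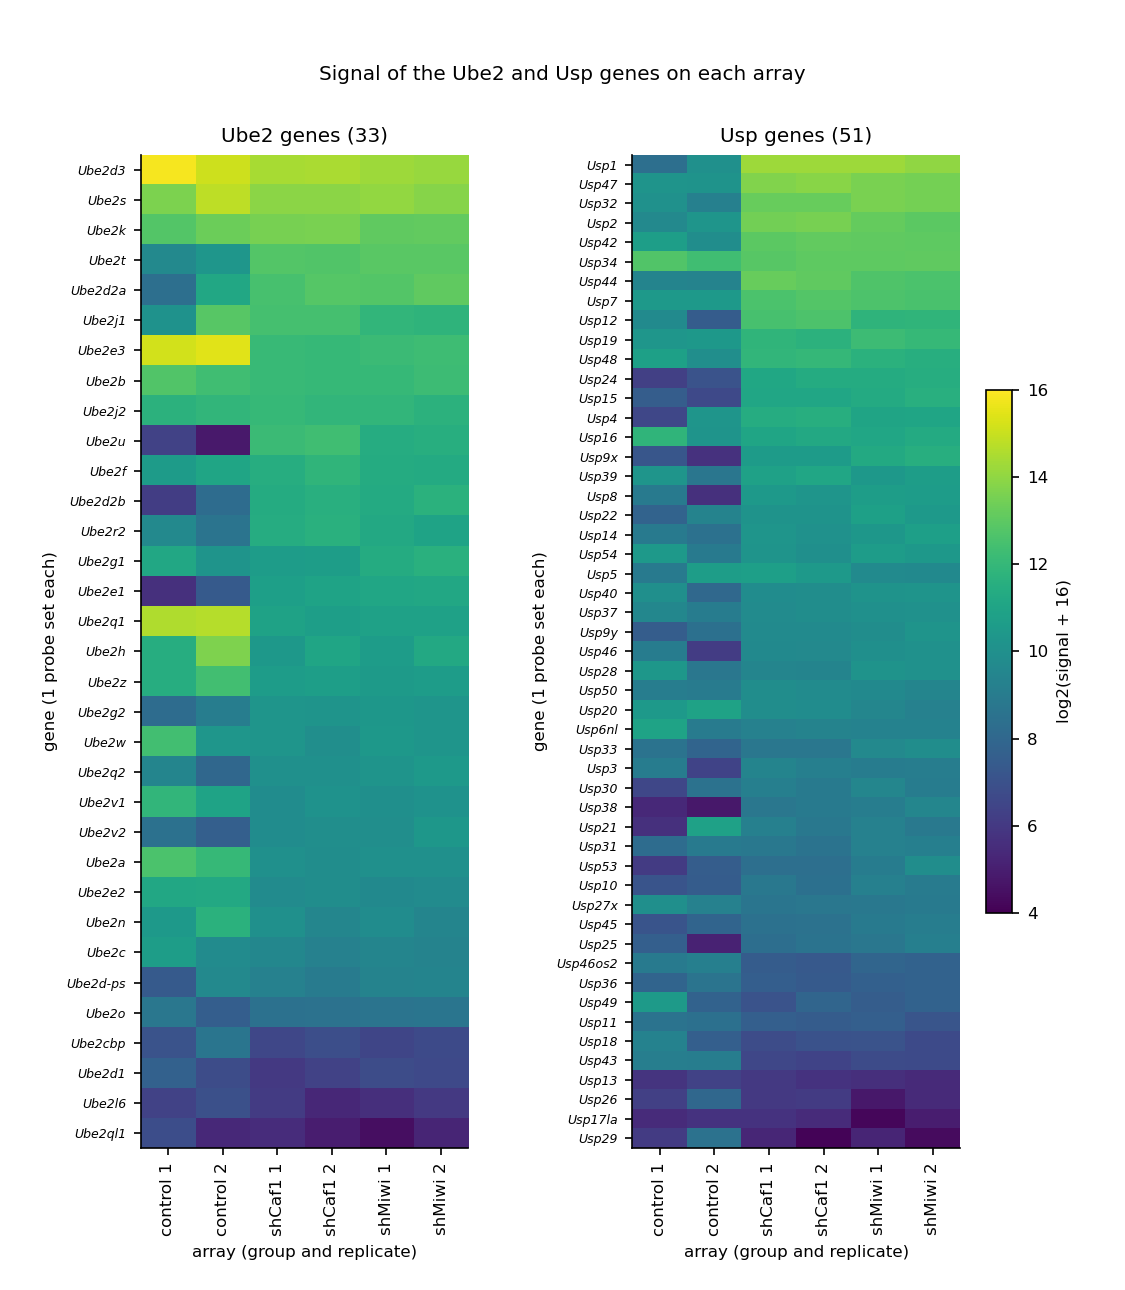
Each row is 1 gene and each column 1 array, and colour gives the log2 signal, so that colours compare arrays within a row. The 4 shRNA arrays resemble one another in most rows, whereas the control arrays on the left differ from them and from each other: the median gap between the replicates over these genes was 0.91 on the log2 scale in control, 0.13 in shCaf1 and 0.13 in shMiwi.

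Between the shRNA groups, 11 of the 78 Ube2 and Usp genes bright enough to be tested differed, 5 of them higher in shMiwi and 6 lower (limma on the 4 arrays, adjusted p under 0.05). Their share, 14.1%, stands beside 7.09% of all probe sets and 8.97% of all genes in the same fit. By direction, 4.34% of all genes were higher and 4.63% lower. The genes that fell were the conjugating enzymes Ube2u, Ube2j1 and Ube2k and the proteases Usp5, Usp12 and Usp44. Those that rose were the conjugating enzyme Ube2g1 and the proteases Usp9x, Usp28, Usp33 and Usp53. The conjugating enzymes had 1 rise and 3 falls among 31 tested and the proteases 4 rises and 3 falls among 47. The median log2 difference was 0.04 over the conjugating enzymes and 0.22 over the proteases, against 0.01 over all genes.

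These counts depended on the scale and on single arrays. When the arrays were set level on the hybridization controls, which are bacterial RNAs added in fixed amounts, the median of all probe sets moved from 0.02 to 0.39, and 35 of the 78 genes were higher and 0 lower (28% and 1.09% of all genes). At an unadjusted p under 0.05 on that scale, 45 were higher and 1 lower in limma. The 5 rises were called on both scales, while each of the 6 falls kept its sign and lost its call. Without shCaf1 replicate 2 a single gene was called, without shCaf1 replicate 1 there were 4, and without shMiwi replicate 1 there were 18. Without the intensity trend in limma 0 were called, with 9 higher and 9 lower at an unadjusted p under 0.05.

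**Figure D2:**
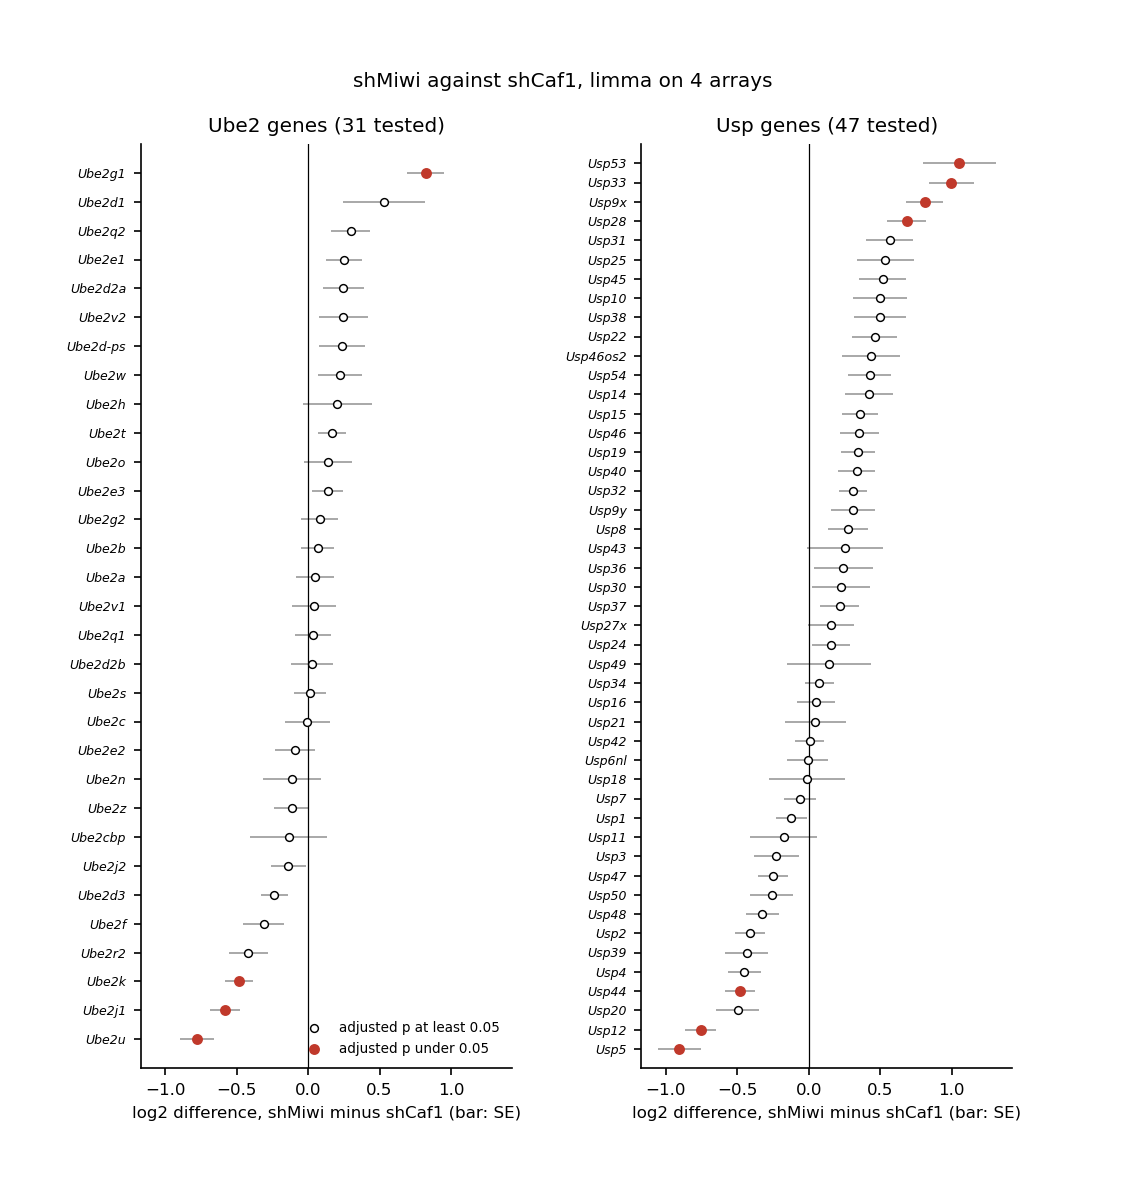
Points give the log2 difference of shMiwi minus shCaf1 for each gene tested, with bars of 1 standard error, and red points passed an adjusted p of 0.05 in limma (n = 2 arrays per group). Positive differences were seen in 50 genes and negative ones in 28, beside 7243 and 6998 of all 14241 genes tested. Called genes lie at both ends of each family, from -0.91 for Usp5 to 1.05 for Usp53.

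Among the conjugating enzymes that fell, Ube2u changed most. Its single probe set read 4605 and 5143 in the shCaf1 group and 2707 and 2963 in the shMiwi group, so that both shMiwi values lay below both shCaf1 values. The log2 difference was -0.78 (SE 0.12, limma adjusted p = 0.0113). Ube2j1, the tail-anchored enzyme of the endoplasmic reticulum that serves the disposal of misfolded proteins, read 5566 and 5554 in shCaf1 and 3799 and 3615 in shMiwi. It fell by 0.58 (SE 0.11, adjusted p = 0.0203 in limma) with no overlap between the groups. Ube2k, which builds the chains that direct proteins to the proteasome, read 11762 and 12397 in shCaf1 and 8470.3 and 8774 in shMiwi. Its groups did not overlap either, and it fell by 0.49 (SE 0.10, adjusted p = 0.0284 in limma). Set level on the hybridization controls, the 3 differences were -0.38, -0.19 and -0.09, and none passed in limma (adjusted p = 0.144, 0.489 and 0.740).

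The proteases that fell included the largest decrease among the genes tested. Usp5, which takes apart free ubiquitin chains, read 1733 and 1407 in the shCaf1 group and 849.8 and 804 in the shMiwi group. The difference of -0.91 (SE 0.15, limma adjusted p = 0.0145) left a gap between the groups wider than the gap between the shCaf1 replicates. Usp12, a protease switched on by WD-repeat partner proteins, read 5901 and 6358 in shCaf1 and 3505 and 3728 in shMiwi. It fell by 0.76 (SE 0.11, adjusted p = 0.00976 in limma). Usp44, which acts on ubiquitinated histone and in the mitotic checkpoint, read 9316 and 8611 in shCaf1 and 6590.5 and 6249.7 in shMiwi, and fell by 0.48 (SE 0.10, adjusted p = 0.0339 in limma). In none of the 3 did the groups overlap. On the hybridization scale they differed by -0.51, -0.36 and -0.08 (limma adjusted p = 0.0749, 0.156 and 0.765).

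The genes that rose were led by Usp53 and Usp33. Usp33, a protease of the endoplasmic reticulum and Golgi, read 422 and 423 in the shCaf1 group and 785 and 939 in the shMiwi group. It rose by 1.00 (SE 0.16, limma adjusted p = 0.0130), and by 1.38 on the hybridization scale. Usp53, which is associated with tight junctions, read 319 and 321 in shCaf1 and 502 and 918 in shMiwi, where the 2 replicates lay far apart. Its difference of 1.05 (SE 0.26, adjusted p = 0.0450 in limma) rested on shMiwi replicate 2, without which it was 0.63 and did not pass (adjusted p = 0.0811 in limma).

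Usp9x, a large X-linked protease, read 1523 and 1517 in shCaf1 and 2451 and 2924 in shMiwi and rose by 0.81 (SE 0.13, limma adjusted p = 0.0140). Its Y-linked relative Usp9y read 847 and 828 against 926 and 1172, a difference of 0.31 that did not pass (adjusted p = 0.262 in limma), and cross-hybridization between such close relatives was not tested. Usp28, a protease known from the DNA damage response and the stability of Myc, read 694 and 665 in shCaf1 and 1144 and 1059 in shMiwi, with a rise of 0.68 (SE 0.14, limma adjusted p = 0.0285). Ube2g1, an E2 that extends ubiquitin chains together with cullin ligases, read 1589 and 1647 in shCaf1 and 2641 and 3125 in shMiwi, and rose by 0.82 (SE 0.13, limma adjusted p = 0.0128). In all 5 genes that rose, both shMiwi values lay above both shCaf1 values. Groups that do not overlap were common on these arrays, since 57.6% of all genes had none, 30% higher and 27.6% lower. Among the 78 genes, 34 were higher and 18 lower with no overlap.

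**Figure D3:**
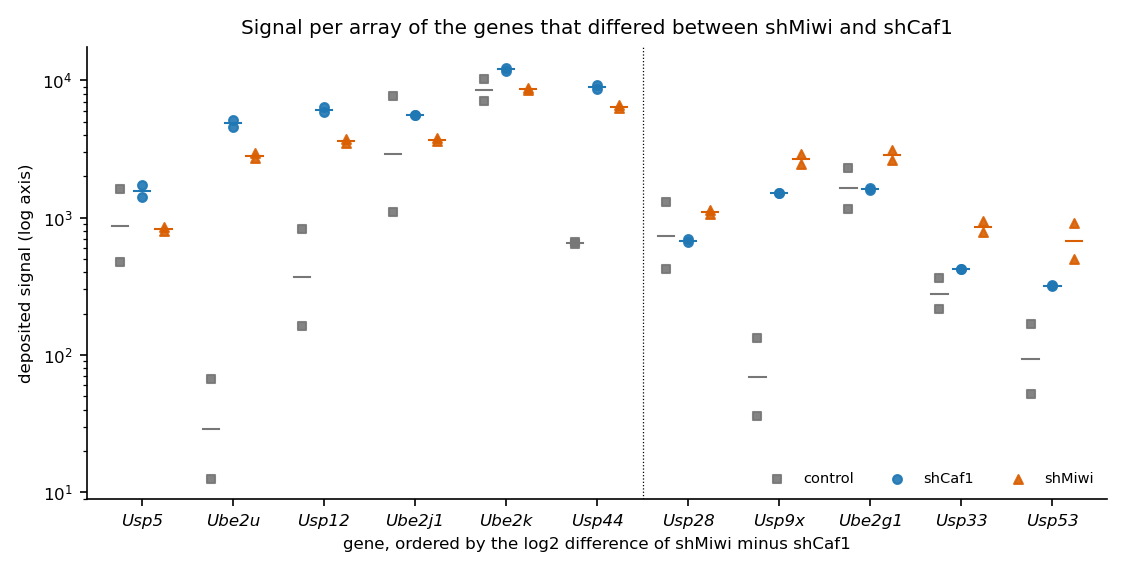
The deposited signal of the 11 genes that differed is drawn on a log axis for each array, with squares for control, circles for shCaf1 and triangles for shMiwi, and short lines at the geometric means. Genes left of the dotted line were lower in shMiwi than in shCaf1 and those right of it higher, and in each the 2 shMiwi points lie apart from the 2 shCaf1 points, while the control points spread over a wider range.

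RefSeq (assembly GRCm38.p6) gave promoters for 6 of the 11 genes, and the 250 bases before the start are shown for 4 of them, all on the plus strand, so that genes that moved in opposite directions can be read side by side. Capitals mark 5-base matches on either strand to TGACG, the core of the cyclic AMP response element that the spermatid activator CREM reads, and to CCAAT. Ube2u (chr4:100478617-100478866) and Ube2j1 (chr4:33031130-33031379) were lower in shMiwi, and Ube2g1 (chr11:72607011-72607260) and Usp28 (chr9:48985135-48985384) higher.
Ube2u: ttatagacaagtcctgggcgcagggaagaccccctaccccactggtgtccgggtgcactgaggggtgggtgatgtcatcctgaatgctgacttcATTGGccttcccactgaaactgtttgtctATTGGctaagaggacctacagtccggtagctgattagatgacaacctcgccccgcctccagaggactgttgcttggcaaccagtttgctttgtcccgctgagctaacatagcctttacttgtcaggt
Ube2j1: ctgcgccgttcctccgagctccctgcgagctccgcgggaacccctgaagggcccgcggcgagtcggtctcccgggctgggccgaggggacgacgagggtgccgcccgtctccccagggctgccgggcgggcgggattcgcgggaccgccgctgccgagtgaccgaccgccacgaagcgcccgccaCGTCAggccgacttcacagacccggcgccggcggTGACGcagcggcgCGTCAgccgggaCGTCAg
Ube2g1: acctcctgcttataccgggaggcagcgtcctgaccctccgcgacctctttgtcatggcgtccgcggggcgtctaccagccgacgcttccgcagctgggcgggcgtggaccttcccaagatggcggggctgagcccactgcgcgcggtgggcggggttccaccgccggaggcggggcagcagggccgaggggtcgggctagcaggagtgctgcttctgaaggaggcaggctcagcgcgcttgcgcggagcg
Usp28: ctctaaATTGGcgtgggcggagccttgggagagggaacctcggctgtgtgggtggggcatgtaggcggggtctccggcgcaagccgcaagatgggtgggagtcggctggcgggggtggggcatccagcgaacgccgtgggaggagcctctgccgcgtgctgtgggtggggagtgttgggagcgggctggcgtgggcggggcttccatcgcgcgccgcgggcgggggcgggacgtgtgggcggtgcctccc
The Ube2j1 stretch held TGACG matches, the stretches of Ube2u and Usp28 held a CCAAT match and that of Ube2g1 held neither. The stretches not shown, those of Ube2k and Usp12, belong to genes that were lower in shMiwi and held neither. Of the 4 promoters of genes that fell, 1 held TGACG and 1 held CCAAT. Its 53.6% of G and C set Ube2u apart from Ube2j1 (77.2%), Ube2g1 (71.6%) and Usp28 (73.2%). Over the 76 promoters found for 66 of the 84 genes, the median G and C content was 65.6%, against 52.4% over 32851 mouse promoters. TGACG occurred in 23.7% of them (17.8% of all promoters), CCAAT in 23.7% (33.8%) and TATAAA in 5.26% (12.4%). The full element TGACGTCA, whose matches also hold TGACG, occurred in 1.32% (1.55%). These matches describe letters in the sequence and were not tested for use.

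Other probe sets of the same gene did not always follow the one that stood for it, and 62 of the 84 genes had several. Usp9x was the best covered of the called genes. Of its 6 probe sets bright enough to be tested, 4 rose, by 0.70, 0.81, 1.05 and 1.07, and the other two, at 0.81 and 0.21, did not pass (limma adjusted p = 0.189 and 0.404). For Usp12 a dimmer probe set rose by 1.00 (adjusted p = 0.0211 in limma) while the brightest fell by 0.76, so the direction for the gene depends on the probe set. Of the dimmer probe sets bright enough to be tested, those of Ube2j1 (0.17, adjusted p = 0.581), Ube2k (0.67, adjusted p = 0.206), Ube2g1 (0.41, adjusted p = 0.27) and Usp53 (-0.37, adjusted p = 0.503) did not pass in limma, and those of Ube2j1, Ube2k and Usp53 had the opposite sign to the called one. Among the probe sets too dim to be tested, 3 of Ube2k (-1.10, -0.26 and -0.69), 1 of Usp53 (0.99) and 1 of Usp9x (0.89) had the same sign as the brightest. That of Usp12 (0.42) had the opposite sign to its brightest. Ube2u, Usp5, Usp28, Usp33 and Usp44 had a single probe set, so that no second reading exists for them.

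A few genes were called on a dimmer probe set only. Usp1, which removes ubiquitin from PCNA and from a Fanconi anaemia protein, rose by 0.82 on one probe set (limma adjusted p = 0.0128), while its brightest differed by -0.12 (adjusted p = 0.535) and its other one by -0.42 (adjusted p = 0.0578). Usp20 fell by 1.05 on one probe set (limma adjusted p = 0.025), and its brightest, at -0.50, pointed the same way without passing (adjusted p = 0.0839). A probe set of Ube2d2a, an E2 that works with many ligases, rose by 0.50 (limma adjusted p = 0.0341) beside 0.25 on the brightest (adjusted p = 0.332). In all, 18 of the 172 probe sets tested were called, 11 higher and 7 lower.

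**Figure D4:**
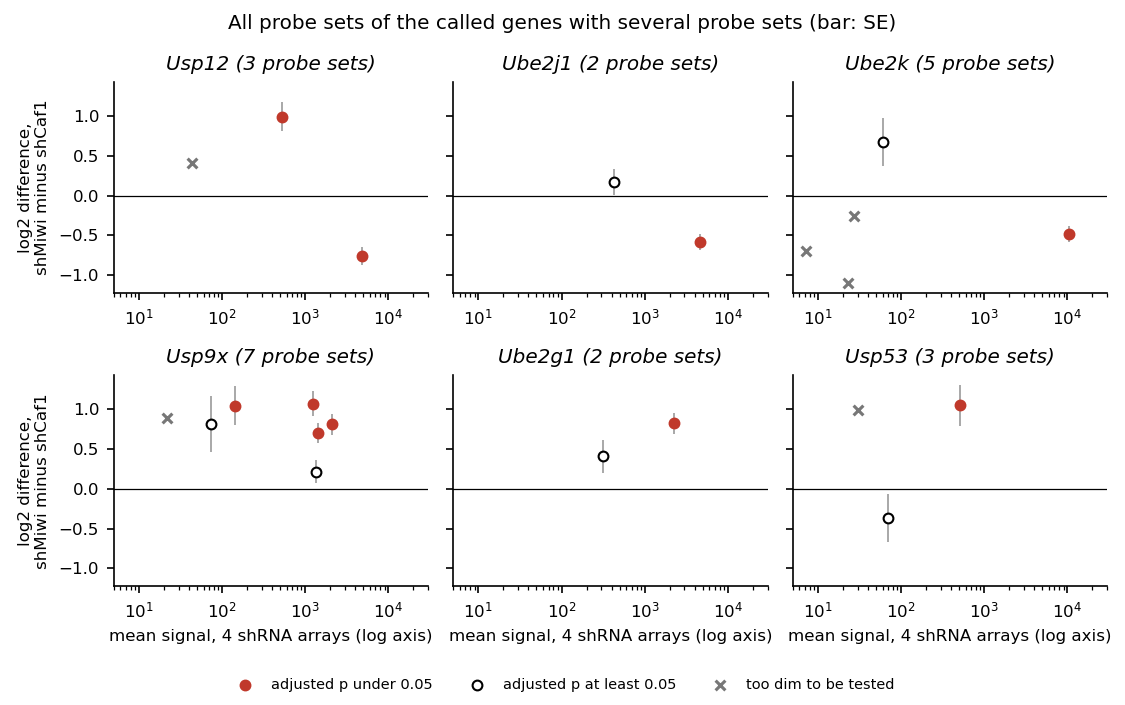
Each panel shows every probe set of 1 called gene that has several, with the mean signal over the 4 shRNA arrays on a log axis and the log2 difference of shMiwi minus shCaf1 with its standard error. The Usp9x probe sets all lie above 0, whereas those of Usp12 lie on both sides, at -0.76 for the brightest and 1.00 for a dimmer one, both called.

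The remaining conjugating enzymes known from germ cell or cell cycle work did not pass between the shRNA groups. Ube2b, the RAD6-type enzyme of spermatids, read 4300.3 and 4168 in the shCaf1 group and 4128 and 4762 in the shMiwi group, so that the groups overlapped, and differed by 0.07 (SE 0.12, limma adjusted p = 0.774). Its X-linked twin Ube2a read 1017 and 943 against 1013 and 1013, a difference of 0.05 (SE 0.13). Ube2n, which builds signalling chains with Ube2v1 or Ube2v2, read 1017 and 712 in shCaf1 and 893 and 689.9 in shMiwi and its replicates differed by more than the groups. Ube2c and Ube2s, the enzymes of the anaphase-promoting complex, differed by 0.01 for Ube2s (SE 0.11) and by less than 0.01 in size for Ube2c (SE 0.16), with overlapping groups in both. Ube2r2, a CDC34-like enzyme, was the nearest to the threshold among those set out here, with 2724 and 3101 in shCaf1 and 2374 and 1983 in shMiwi, no overlap and a difference of -0.42 (SE 0.14, limma adjusted p = 0.0995). Ube2d2b, a close relative of Ube2d2a, read 2649 and 3069.7 against 2574 and 3268 and differed by 0.02 (SE 0.15). A difference that misses the threshold does not show equal levels, and with 2 arrays per group the standard errors of these genes bound what could be seen.

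Several proteases lay just outside the threshold. Usp2, whose loss impairs male fertility in mice, read 11303 and 11717 in the shCaf1 group and 9162 and 8133 in the shMiwi group, with no overlap and a difference of -0.41 (SE 0.11, limma adjusted p = 0.0507). Usp4 read 2761 and 2914 against 2025 and 2110.0, a difference of -0.45 (SE 0.12, adjusted p = 0.0513 in limma). On the hybridization scale these were -0.02 and -0.06. On the other side of 0, Usp31 read 424 and 363 in shCaf1 and 606 and 572 in shMiwi, a difference of 0.57 (SE 0.16, limma adjusted p = 0.0720). Just inside the threshold stood Usp53, and after it Usp44 (adjusted p = 0.0339 in limma).

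The proteases that act on histones gave 1 call, the fall of Usp44, among 9 tested. Usp22, the protease of the SAGA complex, read 1141 and 1113 in shCaf1 and 1779 and 1361 in shMiwi, a difference of 0.46 that did not pass (limma adjusted p = 0.110). Usp16 differed by 0.05 (SE 0.13), Usp3 by -0.23 (SE 0.16) and Usp42, which is abundant in testis, by less than 0.01 in size (SE 0.10). Usp7, which acts on Mdm2 and p53, read 6219 and 6958 in shCaf1 and 6508 and 6089 in shMiwi and differed by -0.06 (SE 0.11). The protease bound to the proteasome, Usp14, and the endosomal protease Usp8 had positive differences of 0.42 and 0.28 without overlap between the groups, and neither passed (limma adjusted p = 0.166 and 0.263). The sign for Usp14 depended on the probe set. Its others differed by -0.45, -0.66 and 0.54, and none passed (limma adjusted p = 0.165, 0.149 and 0.221). A list of 11 Usp genes headed endosome, Golgi and membrane traffic was drawn loosely. It holds Usp8, Usp9x, Usp33 and the GTPase-activating protein Usp6nl, but also Usp10, Usp19, Usp25 and Usp30, which the heading does not describe well. In this list 2 genes rose and 0 fell, with a median difference of 0.31. At an unadjusted p under 0.05 in limma, 6 of the 11 were higher, Usp10, Usp19 and Usp25 among them, and 1 lower, beside 15% and 13.6% of all genes. Usp18, the ISG15 protease, read 93.8 and 113 against 119 and 87.0 and its groups overlapped.

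The 6 genes too dim to be tested were Ube2l6, Ube2ql1, Usp13, Usp17la, Usp26 and Usp29. Ube2l6 is the ISG15-conjugating enzyme, and the X-linked Usp26 is known from testis. Usp26 read 47.3 and 51.7 in the shCaf1 group and 11.6 and 27.4 in the shMiwi group, with 61.0 and 239 in control. Over the 6 genes the signal on the shRNA arrays ran from 1.51 to 51.7. They were left out of every count of tested genes.

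Markers of cell types moved beside these changes. Of 10 markers of elongating spermatids, 9 were lower in shMiwi than in shCaf1 in limma, with a median difference of -0.71 and a summed signal of 183971 to 201011 in shCaf1 and 122938 to 131134 in shMiwi. On the hybridization scale 3 of them were still called, Akap4, Oaz3 and Gapdhs. Round spermatid markers had 1 fall among 8 (median -0.39, summed signal 57844 to 61700 in shCaf1 and 47795 to 49585 in shMiwi). At an unadjusted p under 0.05 in limma, 0 of them were higher and 5 lower. Pachytene spermatocyte markers had 0 calls among 8 (2 higher and 0 lower at an unadjusted p under 0.05 in limma). Of 5 markers of peritubular myoid cells 2 were higher (summed signal 3937 to 3973 in shCaf1 and 4759 to 5195 in shMiwi), as was 1 of 4 Leydig cell markers (19498 to 19853 against 23386 to 23954) and 1 of 7 Sertoli cell markers. In limma 0 passed among 7 spermatogonium, 6 macrophage and 4 endothelial markers (1 higher and 0 lower, 1 and 1, and 0 and 0 at an unadjusted p under 0.05). In RNA from sorted populations, fewer cells of a type and less RNA per cell cannot be told apart. The part of these markers in the differences of the Ube2 and Usp genes was not tested.

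The rest of the ubiquitin pathway was set beside both families. Of 7 E1 activating enzymes, 1 rose in shMiwi against shCaf1, Uba6 (0.50, limma adjusted p = 0.0458), which charges its own set of E2 enzymes, and 0 fell (4 higher and 0 lower at an unadjusted p under 0.05). The list of 10 also covers E1 enzymes of ubiquitin-like modifiers, such as Sae1 and Nae1. Uba1 was listed but not found among the single-gene probe sets, so the count does not describe the ubiquitin E1 step as a whole. Of 8 genes for ubiquitin and its relatives, 0 rose and 1 fell, the germ cell gene Ubl4b (-0.60, limma adjusted p = 0.0225), with 1 higher and 3 lower at an unadjusted p under 0.05. A list drawn for deubiquitinases of other families also holds the Senp and Desi genes and Pan2, and so is not made of deubiquitinases alone. Among its 39 tested genes limma called 0. At an unadjusted p under 0.05, 12 were higher and 2 lower, where 15% and 13.6% of all genes stood. A list drawn for ubiquitin ligases known in male germ cells also holds adaptors such as Klhl10, and so is not made of ligases alone. Among its 61 tested genes 5 rose and 6 fell, where 4.34% and 4.63% of all genes stood. The rises were Shprh (0.90) and Hltf (0.81), which mark PCNA with ubiquitin, the HECT ligases Nedd4 (0.71) and Smurf2 (0.53), and Ubr3 (0.51). On the hybridization scale all 5 were called as well. The falls were the HECT ligase Wwp2 (-0.89), the RING proteins Rnf133 (-0.62), Rnf148 (-0.51), Rnf151 (-0.48) and Rnf138 (-0.43), and Klhl10 (-0.48), a cullin adaptor of spermatids. On that scale none of these 6 passed in limma (differences from -0.49 for Wwp2, adjusted p = 0.0712, to -0.03 for Rnf138, adjusted p = 0.920). Ubl4b lost its call there too (-0.20, adjusted p = 0.468 in limma), and Uba6 kept it.

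Against control, 35 of the 78 genes were called in shMiwi (28 higher, 7 lower) and 30 in shCaf1 (24 higher, 6 lower) in limma on the deposited scale. The shares, 44.9% and 38.5%, stand beside 43.2% and 41.5% of all probe sets and 40.9% and 39% of all genes. By direction, 20.7% of all genes were higher and 20.2% lower in shMiwi, and 19.2% higher and 19.8% lower in shCaf1. Both comparisons share the control arrays. Each gene's probe set was picked for its signal on the shRNA arrays, which favours rises over control. Over all probe sets, where no such choice was made, 16.9% were higher and 26.4% lower in shMiwi, and 15.5% and 26% in shCaf1. The scale decided the direction of the falls. The hybridization controls read 82.3 and 16.2 times their shRNA mean on control replicates 1 and 2. On the shRNA arrays they read 0.806 to 1.2 times that mean. Setting the arrays level divides each by its factor, which by construction lifts the shRNA arrays over control. On that scale 76 genes were higher in shMiwi and 75 in shCaf1, and 0 lower in either, at an adjusted or unadjusted p under 0.05 in limma. Of all genes 95.5% and 94.1% were higher on that scale, and 0.0577% and 0.0144% lower. The sign of all 7 and 6 falls turned, as it did for 97.7% and 97.8% of the falls among all genes, and 5 and 4 of them were called higher. With arrays centred on their median the split was 48 higher and 1 lower in shMiwi, and 48 higher and 3 lower in shCaf1. With 1 control array left out, whichever it was, 65 genes were called in shMiwi and 66 in shCaf1. The lone control array is then assumed to vary like the shRNA replicates, so these counts do not speak for stability. With 1 array of the other shRNA group left out the counts were 19 and 20, and with 1 array of the shRNA group compared left out they were 0 (23 higher and 4 or 5 lower at an unadjusted p under 0.05 for shMiwi, and 17 or 18 higher and 5 lower for shCaf1, in limma). 

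Ube2u headed the rises in both groups. It read 66.8 and 12.6 on the control arrays against 4605 and 5143 in shCaf1 and 2707 and 2963 in shMiwi, higher by 5.87 in shMiwi (SE 0.57, limma adjusted p = 0.00435) and by 6.65 in shCaf1 (SE 0.57, adjusted p = 0.00487). The control signals are dim, that of replicate 2 within the range of the genes left untested, so the size rests on the added constant: with 1 in place of 16 the differences were 6.54 and 7.32, and with 64 they were 4.85 and 5.62. Usp1 read 322 and 1020.4 in control and rose by 4.92 in shMiwi and 5.04 in shCaf1 (limma adjusted p = 0.00581 and 0.00639). Usp9x, at 134 and 35.9 in control, rose by 4.93 and 4.12 (limma adjusted p = 0.00520 and 0.00740), and Usp24, at 61.5 and 118, by 4.75 and 4.60 (limma adjusted p = 0.00398 and 0.00499). The size and sign for Usp9x depended on the probe set. The probe set brightest over all 6 arrays differed by -0.12 in shMiwi and -0.33 in shCaf1, and neither passed in limma. Other probe sets rose by 2.13 and 1.89 in shMiwi (limma adjusted p = 0.0367 and 0.0163). In shCaf1 these were at 1.43 and 0.82 without passing (limma adjusted p = 0.110 and 0.155). The remaining ones tested, at -0.32 and -0.16 in shMiwi and -1.13 and -1.20 in shCaf1, did not pass. These 4 genes were higher on all 4 shRNA arrays than on both control arrays, on either scale.

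The falls against control were led by Ube2q1, with 24638 and 26192 on the control arrays, 1896 and 1694 in shCaf1 and 1835 and 1839.8 in shMiwi. Its differences were -3.78 in shMiwi and -3.81 in shCaf1 (limma adjusted p = 0.00429 and 0.00520), and its other probe set rose by 1.64 and 1.52. Ube2e3 (-3.11 in shMiwi and -3.25 in shCaf1), Usp43 (-2.40 and -2.66) and Ube2a (-2.30 and -2.35) followed on the deposited scale in limma. On the hybridization scale all 4 signs turned: Usp43 and Ube2a were higher in shMiwi, by 1.83 and 2.91 (limma adjusted p = 0.00276 and 0.00269), and Ube2q1 and Ube2e3, at 1.57 and 2.25, did not pass (adjusted p = 0.135 and 0.0940). Ube2b, with 6729 and 5047 in control, differed on its brightest probe set by -0.39 in shMiwi and -0.46 in shCaf1 and did not pass (limma adjusted p = 0.451 and 0.383). A dimmer Ube2b probe set was higher by 3.01 in shMiwi and 2.75 in shCaf1 (limma adjusted p = 0.0232 and 0.0317). Those too dim to be tested were lower, by 2.67 and 1.00 in shMiwi. The direction for Ube2b against control thus depends on the probe set.

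Of the genes that differed between the shRNA groups, Ube2u, Usp9x, Usp12 and Usp44 were higher than control in both. Usp44 read 662 and 642 on the control arrays and was higher by 3.27 in shMiwi and 3.75 in shCaf1, and Usp12, at 832 and 162, by 3.22 and 3.98. Usp33 and Usp53 passed in shMiwi (1.56 and 2.64) and were at 0.56 and 1.59 in shCaf1 without passing (limma adjusted p = 0.289 and 0.0882). Usp5, Usp28, Ube2g1, Ube2j1 and Ube2k passed in neither. The control arrays disagreed over Ube2j1 (1104 and 7637), Usp5 (472 and 1617) and Usp28 (1290.4 and 424), and apart from shCaf1 replicate 1 for Usp5 the shRNA values of these genes lay between them.

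**Figure D5:**
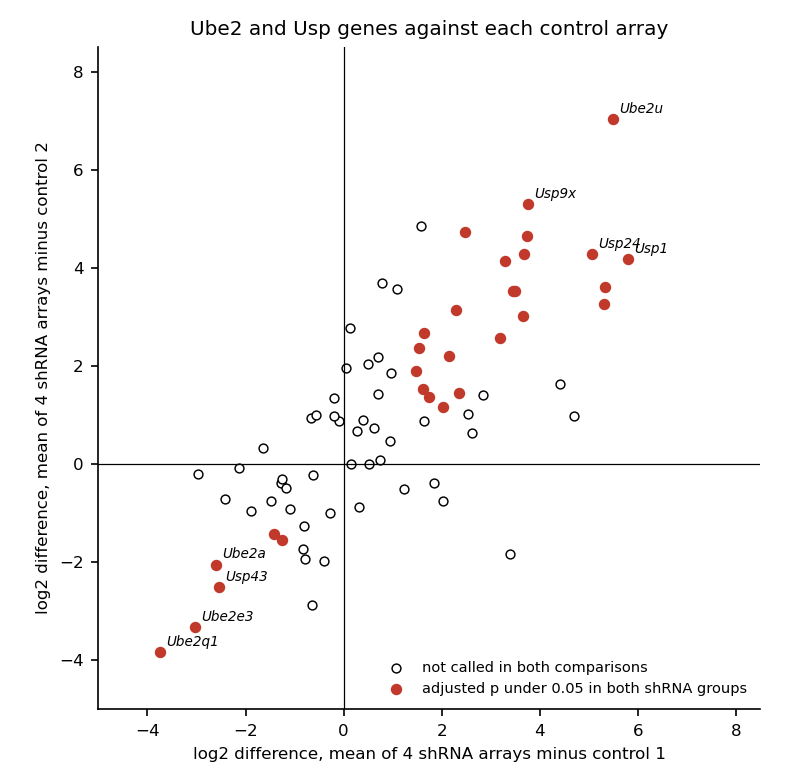
Each point is 1 gene, with the mean log2 signal of the 4 shRNA arrays minus control replicate 1 on the horizontal axis and minus control replicate 2 on the vertical axis, on the deposited scale. Of the 78 genes 45 lay above both control arrays, 22 below both and 11 (14.1%) on opposite sides. Of all 27022 probe sets tested, 8561 lay above both, 11500 below both and 25.8% on opposite sides. Unlike the 78, these were not picked for their signal on the shRNA arrays. The genes called in both shRNA groups (red) lie in the corners where both controls gave the same sign.

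Probe sets of 1 gene were called in opposite directions against control for Ube2d2a in shMiwi and for Ube2e1, Ube2q1, Ube2r2, Usp14, Usp15 and Usp40. For Usp14 the brightest probe set rose by 1.89 in shMiwi while another fell by 3.82, and for Ube2e1 the brightest rose by 4.59 while the other fell by 3.22 (limma). In the lists of the wider pathway the deposited scale gave 3 rises and 2 falls in shMiwi among 7 E1 enzymes in limma. It gave 14 rises and 1 fall among 39 other deubiquitinases and related genes, and 20 rises and 6 falls among 61 genes of the ligase list. In shCaf1 these were 2 and 1, 12 and 2, and 22 and 5. All 8 pachytene spermatocyte markers were higher than control in both shRNA groups, and the summed signal of the 10 elongating spermatid markers ran from 2808 to 702591 between the control arrays. Their part in the differences from control was not tested.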

How the data were processed

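The authors' deposited values are linear signal intensities, 1 for each probe set on each array, made with MAS5 per the submitters' processing notes. The MAS5 version, the genome build and any earlier filter are not given in the sources used here. Each array's trimmed mean was 500. Signals were analysed as log2(signal + 16), which understates differences of dim genes. After 64 control probe sets were left out, those with a mean above the 40th percentile were tested (27022 of 45037) with limma 3.58.1 in R 4.3.3, using its intensity trend and Benjamini-Hochberg adjustment. shMiwi was set against shCaf1 on their 4 arrays (2 residual degrees of freedom) and each against control in 1 model of 6 arrays (3 residual degrees of freedom). An alternative scale used 18 hybridization control probe sets. The number of arrays limits the precision. RefSeq held 83 of the 84 genes by identifier. Members and lists were chosen with earlier results of these data known. Genes are named where called between the shRNA groups, among the 4 largest per direction called in both groups against control, in a set chosen by role, or with probe sets called in opposite directions. Usp31 fills the named rises to 6, and Usp4 and Usp20 were added after their values were seen.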

Additional observations from a re-analysis of the deposited data

How the results depend on the processing

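Between the shRNA groups 11 genes were called, and the count became 6 with no filter on dim probe sets, 7 with median centring (4 higher, 3 lower), 35 on the hybridization scale, 0 without the intensity trend, 7 with all probe sets of a gene averaged and 0 with all 6 arrays in the fit (1 higher and 0 lower at an unadjusted p under 0.05 in limma), where the control arrays widen the shared spread. Leaving out 1 array gave 1 to 18. Against control, the 35 genes of shMiwi became 76 on the hybridization scale and 19 with the 4 arrays of the groups alone, and 0 to 65 without 1 array. The 30 genes of shCaf1 became 51 with median centring, 75 on the hybridization scale and 0 to 66 without 1 array. With the replicate number as a block, 29 genes were called between the shRNA groups (16 higher, 13 lower), 30 in shMiwi and 24 in shCaf1 against control. The numbers share no stated origin, and deviations of same-numbered arrays correlated at 0.181 between the shRNA groups, so the block is no pairing. Signs turned for Usp12 with all probe sets averaged (0.22), and on the hybridization scale for Ube2a (2.91 in shMiwi, 2.47 in shCaf1), Ube2e3 (2.25, 1.72), Ube2q1 (1.57, 1.14) and Usp43 (1.83, 1.25) against control. They also turned for Usp9x against control, with the probe set brightest over 6 arrays (-0.12, -0.33) and, in shCaf1, with all probe sets averaged (-0.079). Where no construction shows it, the cause was not tested.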
